A study of Mus musculus with 9 samples.

Results

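The nuclear-encoded subunits of the respiratory chain were followed as 88 genes of the 55704 in the deposited table. A gene was a member when its Ensembl identifier mapped to a symbol that begins with Ndufa, Ndufb, Ndufc, Ndufs or Ndufv and a digit (complex I), to Sdha, Sdhb, Sdhc or Sdhd (complex II), or to a symbol that begins with Uqcr (complex III), Cox4 to Cox8 (complex IV) or Atp5 (complex V). Of 106 symbols that matched, 14 with -ps in the symbol and 4 others annotated as pseudogenes were left out. Complex I had 37 members, complex II 4, complex III 8, complex IV 20 and complex V 19. Ndufa4 and its paralog Ndufa4l2 were placed in complex IV, where the Ndufa4 protein is found despite its name.

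The cells were NSCs from the SVZ of adult C57BL/6 mice aged 8 to 9 weeks, isolated from 2 female and 2 male mice pooled in an isolation, expanded with bFGF and EGF, and plated on poly-L-ornithine and laminin for the treatments. Bulk RNA-seq compared 3 groups with 3 libraries each. The bFGF/EGF-treated NSCs stayed in proliferation medium and were collected at day 0. The bFGF/BMP4-treated NSCs had EGF replaced by BMP4, the BMP4-treated NSCs had both factors replaced by BMP4, and both were collected at day 6. Each factor was used at 20 ng/mL. A difference from the bFGF/EGF group therefore includes 6 days of culture, and the effect of the factors and the effect of time cannot be told apart. The labels do not tie each library to its own isolation, so the p-values below measure the spread between these libraries, which may be technical.

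The respiratory chain is built in the inner mitochondrial membrane from subunits that are mostly encoded in the nucleus, with a small core encoded by the mitochondrial genome. Complexes I and II take electrons from NADH and succinate and pass them to coenzyme Q, complex III passes them to cytochrome c, complex IV passes them to oxygen, and complex V, the ATP synthase, uses the proton gradient that complexes I, III and IV build to make ATP. Several complex IV subunits exist as a general isoform and an isoform that is known from particular tissues such as heart, skeletal muscle, lung or testis. Differentiation or quiescence is known to change the balance between glycolysis and oxidative phosphorylation.

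Values are FPKM, in which the fragments of a gene are divided by its length and by the size of the library. Between 15868827 and 17390789 fragments lay on genes in each library. Of the 88 members, 84 had a mean FPKM of at least 0.1 over the 9 libraries and were tested. The remaining 4 were Cox8c and a second identifier of Atp5po, both listed at 0 in every library, Ndufb11b, which had 1 fragment in 1 library, and Cox7b2, which had 33 fragments in BMP4 replicate 2 and none in the other 8 libraries. One pattern among the libraries touches most values below. BMP4 replicate 2 was the highest of its group in 83 of 84 members, and bFGF/EGF replicate 2 was the highest of its group in 80. The median member lay 0.42 on the log2 scale above the mean of its group in BMP4 replicate 2, against -0.28 in BMP4 replicate 1 and -0.14 in BMP4 replicate 3. In the bFGF/EGF group the same deviations were -0.04, 0.25 and -0.22, and in the bFGF/BMP4 group they lay between -0.03 and 0.04. Other short genes moved in the same direction by less. Over all genes in the second shortest of 5 length classes, which holds the median member at 1522 nt, the median deviation of BMP4 replicate 2 was 0.26, and over the longest class it was -0.19. Counts by complex are therefore also given without these libraries, a choice made after these values were seen.

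**Figure D1:**
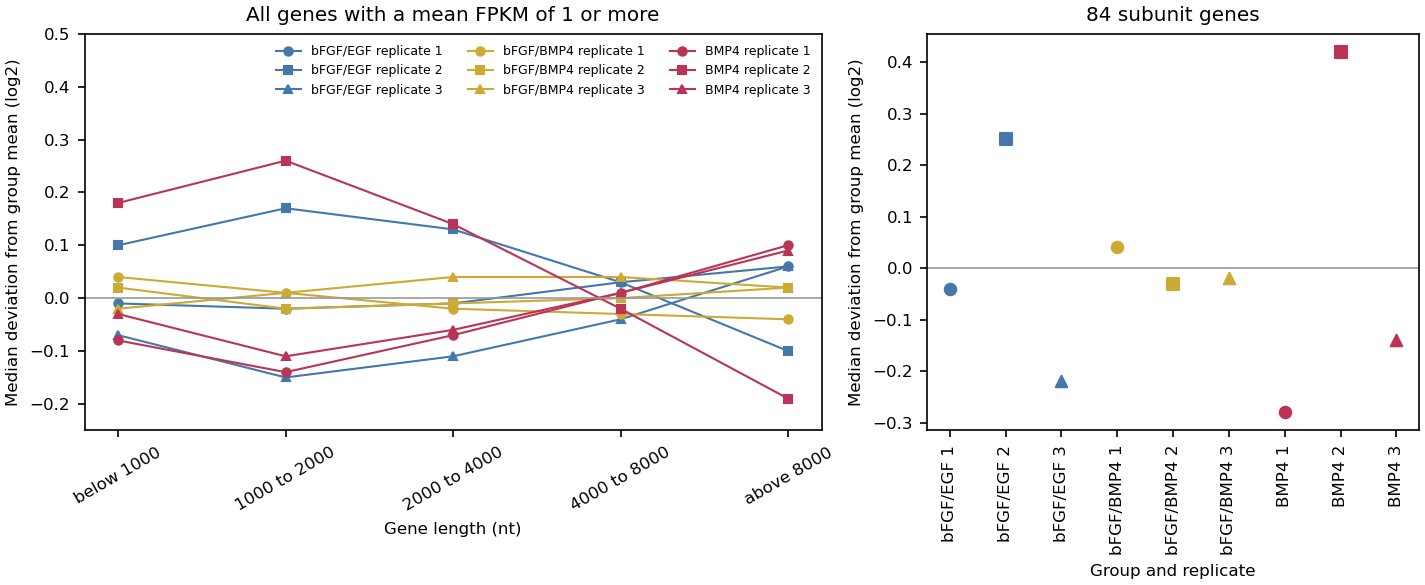
Left, median deviation of each library from the mean of its group on the log2 scale (y axis) for genes in 5 classes of length in nt (x axis); right, the same median over the 84 tested subunit genes (y axis) for each library (x axis). Colours mark the groups and symbols the replicates. BMP4 replicate 2 reached 0.42 and bFGF/EGF replicate 2 reached 0.25 for the subunit genes, while the 3 bFGF/BMP4 libraries stayed between -0.03 and 0.04.

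Subunit transcripts made up a larger share of all transcripts in both day 6 groups. Summed over the 88 genes and with each library scaled to the same total (TPM), the members took 2.74%, 3.20% and 2.63% of all transcripts in the bFGF/EGF libraries, 3.86%, 3.53% and 3.49% in the bFGF/BMP4 libraries, and 3.19%, 4.27% and 3.46% in the BMP4 libraries. All 3 bFGF/BMP4 libraries lay above all 3 bFGF/EGF libraries, whereas BMP4 replicate 1 lay just under bFGF/EGF replicate 2. The group means were 2.85% ± 0.302 (SD, n = 3), 3.62% ± 0.204 and 3.64% ± 0.558. The most abundant members were Cox8a, Cox6a1, Atp5f1b, Atp5f1a and, at a lower level, Cox4i1, with group means between 234.4 FPKM (Cox4i1 in bFGF/EGF) and 726.7 FPKM (Cox6a1 in BMP4). The 6 tested tissue isoforms of complex IV lay at the other end, with group means between 0.0604 and 37.6 FPKM.

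The balance between the complexes was followed as shares of the summed subunit FPKM of each library. The largest SD among replicates was 1.17 percentage points, for complex V in BMP4. In that group replicate 2 had the lowest shares of complexes II and V. Complex V took 29.5%, 29.6% and 29.3% of the summed subunit FPKM in the bFGF/EGF libraries. It took 25.5%, 26.4% and 26.7% in the bFGF/BMP4 libraries and 26.9%, 24.5% and 25.5% in the BMP4 libraries, so each day 6 library was below each bFGF/EGF library. Complex III went the other way, from 11.9% ± 0.305 (SD, n = 3) in bFGF/EGF to 14.4% ± 0.324 in bFGF/BMP4 and 14.5% ± 0.299 in BMP4, again with no overlap between day 0 and day 6 libraries. Complex IV took 28.3% ± 0.296, 30.6% ± 0.530 and 30.3% ± 0.891 in the same order, and complex I took 25.5% ± 0.470, 23.8% ± 0.118 and 24.0% ± 0.734. In both, the day 0 and the day 6 libraries did not overlap. Complex II took 4.87% ± 0.128, 4.97% ± 0.179 and 5.52% ± 0.435, and its shares overlapped between bFGF/EGF and bFGF/BMP4. Between the day 6 groups the shares of complexes I, III, IV and V overlapped. A smaller share of the summed subunits is not a lower level. Complex V took 0.841% ± 0.0934 (SD, n = 3), 0.948% ± 0.0309 and 0.929% ± 0.103 of all transcripts in the same order of groups, with overlap. Complex I took 0.727% ± 0.0647, 0.864% ± 0.0477 and 0.877% ± 0.161 of all transcripts.

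**Figure D2:**
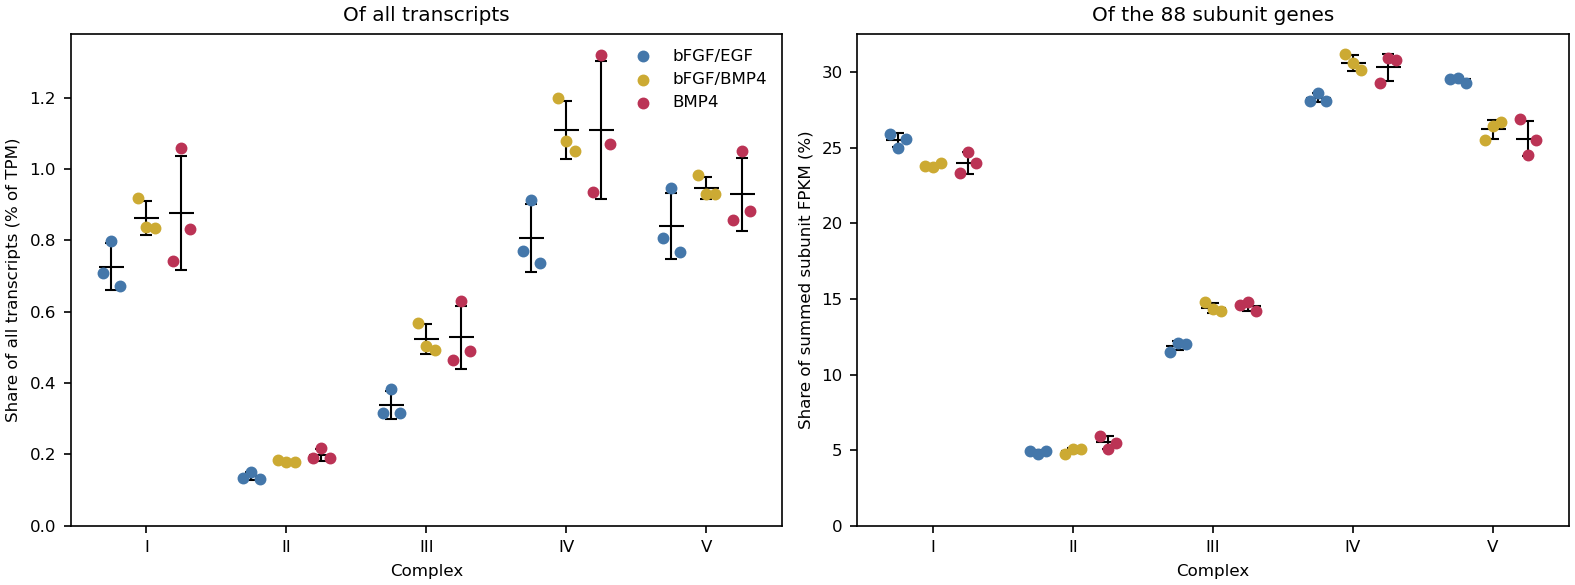
Left, share of all transcripts in percent of TPM (y axis) taken by the nuclear-encoded subunits of each complex (x axis); right, share of each complex in the summed FPKM of the 88 subunit genes. Points are libraries, and bars give the mean and SD of 3 libraries. On the right, complex V lies between 29.3% and 29.6% in bFGF/EGF and between 24.5% and 26.9% in the day 6 groups, and complex III between 11.5% and 12.1% against 14.2% to 14.8%.

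Each gene was tested with limma on log2(FPKM + 0.1) among 20207 genes, and a gene was counted as higher or lower when the p-value adjusted over all of them was at most 0.05. Fold changes are on this log2 scale, on which the change of genes at low FPKM depends on the added 0.1. In bFGF/BMP4 against bFGF/EGF, 21 of 84 members were higher (25.0%) and 3 were lower (3.57%). Of all genes tested, 25.0% were higher and 23.6% lower, so the share of members that rose was that of all genes, and the share that fell was smaller. The median log2 fold change of the members was 0.29, against 0.06 for all genes, and 83.3% of the members had a positive value, against 52.7% of all genes. With a fold change of at least 2 in addition, 5 members were higher and 1 was lower, where 16.5% and 14.1% of all genes were. The first count depended on the libraries named above. Without replicate 2 of both bFGF/EGF and BMP4, 52 of 84 members were higher (61.9%), against 24.6% of all genes, and the median was 0.41. This fit was chosen after the data were seen. It leaves out the bFGF/EGF library that was highest for 80 members, which by itself raises their change in bFGF/BMP4. Here and by complex below, it therefore shows dependence on the libraries and is no separate support for a rise. The count was 12 without bFGF/EGF replicate 1 or without bFGF/EGF replicate 3, and 13 without any single bFGF/BMP4 library.

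In BMP4 against bFGF/EGF, 30 of 84 members were higher (35.7%) and 4 were lower (4.76%), where 29.6% of all genes were higher and 25.3% lower. The median log2 fold change was 0.42 for the members and 0.10 for all genes, and 89.3% of the members had a positive value, against 53.5% of all genes. With a fold change of at least 2, 11 members were higher and 1 lower, beside 21.3% and 15.4% of all genes. Without BMP4 replicate 2, 24 of 84 were higher (28.6%), beside 28.9% of all genes, and the median fell to 0.17. Without replicate 2 of both bFGF/EGF and BMP4, 35 members were higher and 4 lower, beside 27.7% and 23.7% of all genes, and the median was 0.30.

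In BMP4 against bFGF/BMP4, 5 of 84 members were higher (5.95%) and 1 was lower (1.19%), beside 12.2% and 8.89% of all genes. With a fold change of at least 2 these counts were 4 and 1, beside 8.41% and 5.14% of all genes. All 6 were tissue isoforms of complex IV. Among the 78 other members limma called none, also at an unadjusted p under 0.05, and limma-voom on the fragment numbers called none and had 1 at an unadjusted p under 0.05. With quantile normalization some of these 78 were called. In complex II 1 member was higher, in complex V 1 was lower, and in complex IV 3 were lower, the tissue isoform Cox6a2 among them. Of all genes in that fit, 11.9% were higher and 11.1% lower. The median log2 fold change of the members was 0.13, against 0.00 for all genes, but it was -0.08 without BMP4 replicate 2. Without that library 1 of these 78 members, Ndufa5, was lower, and without replicate 2 of both groups Ndufa5, Ndufb11 and Cox7a2l were lower. Ndufa5 and Ndufb11 are named here after their values were seen. In bulk RNA, fewer cells of a type and less RNA per cell cannot be told apart.

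**Figure D3:**
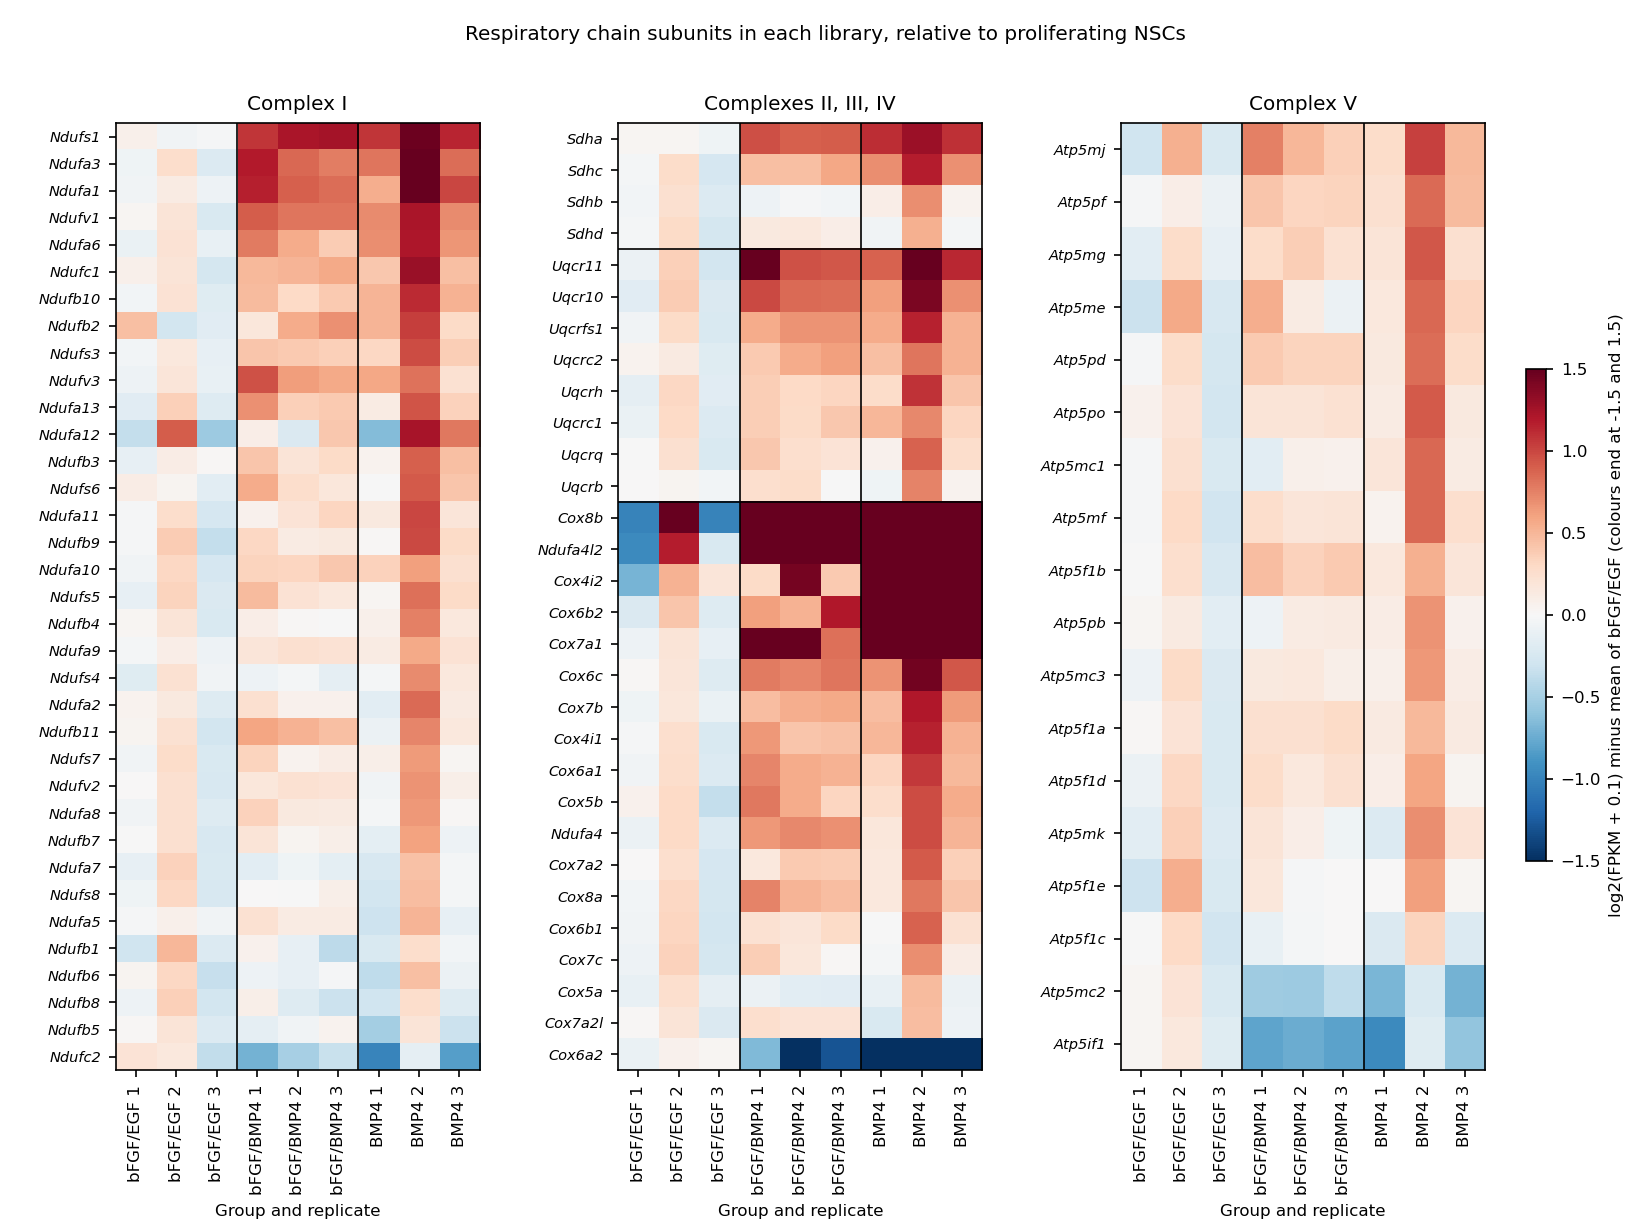
Each row is 1 of 83 of the 84 tested subunit genes, sorted within its complex by the change in BMP4, and each column is 1 library. Colour gives log2(FPKM + 0.1) minus the mean of the bFGF/EGF libraries, with colours ending at -1.5 and 1.5. Most rows are red in both day 6 groups, Cox6a2, Atp5if1, Atp5mc2 and most of Ndufc2 are blue there, and the column of BMP4 replicate 2 is darker red than its neighbours.

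**Figure D4:**
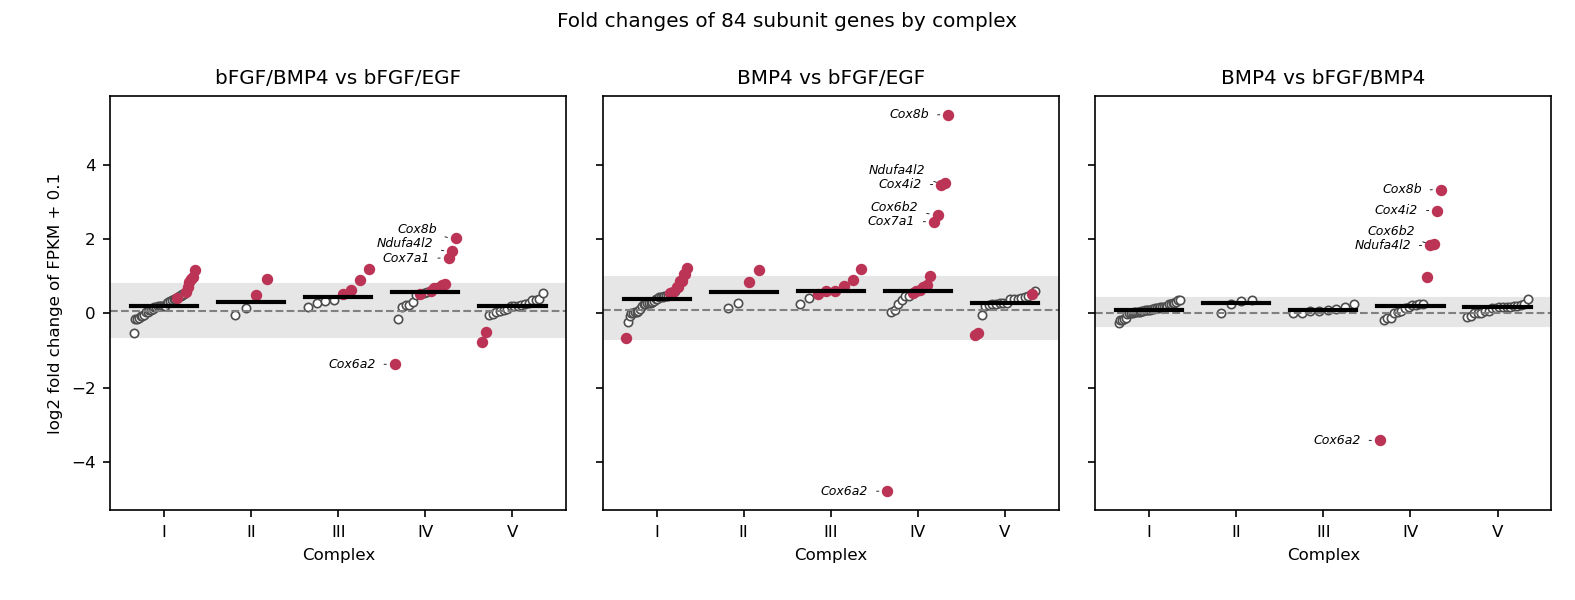
Log2 fold change of FPKM + 0.1 (y axis) of the 84 tested members by complex (x axis) in the 3 comparisons. Filled points passed an adjusted p of 0.05, open points did not, black bars are the medians of the complexes, and the dashed line and grey band are the median and quartiles of all 20207 genes tested. In BMP4 against bFGF/BMP4 the filled points are confined to 6 tissue isoforms of complex IV, from -3.42 to 3.33.

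In complex I, which oxidises NADH, 7 of 36 tested members were higher and none lower in bFGF/BMP4 against bFGF/EGF, and 10 were higher and 1 lower in BMP4 against bFGF/EGF. The shares that were higher, 19.4% and 27.8%, lay below those of all genes (25.0% and 29.6%). The medians were 0.21 and 0.39. Without replicate 2 of both bFGF/EGF and BMP4, 18 were higher in bFGF/BMP4 (50.0%) and 12 in BMP4 (33.3%), beside 24.6% and 27.7% of all genes. The medians in that fit were 0.35 and 0.24, and without BMP4 replicate 2 alone the median in BMP4 was 0.15. The matrix arm, which holds the flavin and the iron-sulfur clusters, had 5 and 6 of 16 members higher and none lower. The membrane arm had 2 and 4 of 20 members higher, and 1 member, Ndufc2, lower in BMP4 against bFGF/EGF. Ndufs1, the largest core subunit, which carries iron-sulfur clusters, had the largest rise. It stood at 18.0, 16.5 and 16.9 FPKM in the bFGF/EGF libraries, at 36.0, 40.0 and 40.7 FPKM in the bFGF/BMP4 libraries and at 36.2, 47.8 and 37.8 FPKM in the BMP4 libraries. The day 0 and day 6 libraries were well apart, and the day 6 groups overlapped. The log2 fold changes from bFGF/EGF were 1.17 ± 0.12 (SE, adjusted p = 3.9e-05) in bFGF/BMP4 and 1.23 ± 0.12 (adjusted p = 2.0e-05) in BMP4. Ndufs1 shares 297 exonic bases with Eef1b2 on the opposite strand, whose level fell (log2 fold changes -1.33 and -1.53), and 1432 with the weakly expressed Ino80dos (mean 1.4 FPKM over all libraries), whose level rose (0.92 and 0.89). The part of these neighbours in the value of Ndufs1 was not tested.

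Ndufv1, the core subunit that binds flavin and receives electrons from NADH, was at 48.1, 54.3 and 40.5 FPKM in bFGF/EGF, 89.1, 82.3 and 82.6 FPKM in bFGF/BMP4 and 77.1, 110.5 and 77.5 FPKM in BMP4. Both day 6 groups lay above day 0 without overlap, with log2 fold changes of 0.84 ± 0.16 (adjusted p = 0.0019) and 0.88 ± 0.16 (adjusted p = 0.0012). Its neighbour in the same module, Ndufv2, did not pass (log2 fold changes 0.20 ± 0.19 and 0.24 ± 0.19). Of the other core subunits, Ndufs3 passed in BMP4 (0.55 ± 0.17, adjusted p = 0.019) but not in bFGF/BMP4 (0.39 ± 0.17, adjusted p = 0.086). Ndufs7 (0.17 ± 0.19 and 0.25 ± 0.19) and Ndufs8 (0.03 ± 0.20 and 0.05 ± 0.20) did not pass in either. The call of Ndufs3 in BMP4 was lost without bFGF/EGF replicate 1 or 3, among others, and held in 17 of 21 alternative fits.

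Among the accessory subunits of the membrane arm, Ndufa1 and Ndufa3 changed most. Ndufa1, a small X-linked subunit, was at 59.2, 66.7 and 58.2 FPKM in bFGF/EGF, 137.1, 114.5 and 109.8 FPKM in bFGF/BMP4 and 89.7, 184.0 and 123.1 FPKM in BMP4, and its log2 fold changes were 0.97 ± 0.23 (adjusted p = 0.0054) and 1.05 ± 0.23 (adjusted p = 0.0029). Ndufa3 rose by 0.94 ± 0.21 (adjusted p = 0.0044) and 1.06 ± 0.21 (adjusted p = 0.0019) from 40.1 ± 6.83 FPKM (SD, n = 3). For both, each day 6 library was above each day 0 library. Ndufc2, named after its values were seen, was the single member of complex I that fell. It was at 222.3, 214.4 and 149.6 FPKM in bFGF/EGF, 117.7, 136.2 and 152.1 FPKM in bFGF/BMP4 and 96.6, 174.7 and 108.8 FPKM in BMP4. These groups overlapped, with log2 fold changes of -0.52 ± 0.24 (adjusted p = 0.10) and -0.65 ± 0.24 (adjusted p = 0.040). The 25 members of complex I that did not pass in BMP4 against bFGF/EGF lay between -0.22 and 0.61. The value of Ndufa12 is uncertain, since the pseudogene Ndufa12-ps, with a near-identical name, was at 54.6 to 97.1 FPKM and reads may be split between them.

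In complex II, which also serves the TCA cycle as succinate dehydrogenase, 2 of 4 subunits passed in each comparison with bFGF/EGF, none lower. The medians were 0.32 and 0.57, and 25.0% and 29.6% of all genes were higher. Without replicate 2 of both bFGF/EGF and BMP4, 3 passed in bFGF/BMP4 and 2 in BMP4 (medians 0.46 and 0.52), beside 24.6% and 27.7% of all genes higher. With quantile normalization 3 passed in each, beside 23.7% and 26.5% of all genes higher. The number that passed thus depended on the libraries and the scaling. Sdha, the flavoprotein that oxidises succinate, was at 94.8, 94.9 and 88.6 FPKM in bFGF/EGF, 181.1, 172.8 and 174.3 FPKM in bFGF/BMP4 and 200.6, 225.9 and 198.9 FPKM in BMP4. The 3 groups did not overlap, and BMP4 replicate 2 stood out less than it did for shorter genes. The log2 fold changes were 0.92 ± 0.11 (adjusted p = 8.8e-05) in bFGF/BMP4 and 1.17 ± 0.11 (adjusted p = 1.3e-05) in BMP4, and the step between the day 6 groups was 0.24 ± 0.11 (adjusted p = 0.17). Sdhc, a membrane anchor, rose by 0.50 ± 0.17 (adjusted p = 0.036) and 0.85 ± 0.17 (adjusted p = 0.0019), the first lost without bFGF/EGF replicate 1 or 3 or any bFGF/BMP4 library. The iron-sulfur subunit Sdhb (-0.04 ± 0.18 and 0.29 ± 0.18) and the other anchor Sdhd (0.14 ± 0.19 and 0.15 ± 0.19) did not pass. Sdhb was at 80.2 to 109.5 FPKM in bFGF/EGF and at 87.9 to 91.4 FPKM in bFGF/BMP4, so its bFGF/BMP4 libraries lay within the range of day 0.

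In complex III, all 8 members had positive values in all 3 comparisons. In bFGF/BMP4 against bFGF/EGF 4 of 8 passed and in BMP4 against bFGF/EGF 6 of 8, none lower, with medians of 0.44 and 0.59. The shares of all genes that were higher were 25.0% and 29.6%. Without replicate 2 of both bFGF/EGF and BMP4 these counts were 7 and 6, beside 24.6% and 27.7% of all genes. Without BMP4 replicate 2 alone they were 4 and 4, beside 25.9% and 28.9% of all genes. The small accessory subunits Uqcr11 and Uqcr10 changed most. Uqcr11 was at 97.3, 132.7 and 85.6 FPKM in bFGF/EGF, 329.7, 201.1 and 197.9 FPKM in bFGF/BMP4 and 191.3, 306.1 and 227.2 FPKM in BMP4. Day 6 lay above day 0 without overlap, and bFGF/BMP4 replicate 1 was the highest of all libraries. Its log2 fold changes were 1.19 ± 0.26 (adjusted p = 0.0034) and 1.20 ± 0.26 (adjusted p = 0.0028). Uqcr10 rose by 0.89 ± 0.24 (adjusted p = 0.011) and 0.90 ± 0.24 (adjusted p = 0.0089). The Rieske iron-sulfur protein Uqcrfs1, which carries electrons towards cytochrome c, rose by 0.64 ± 0.20 (adjusted p = 0.024) and 0.74 ± 0.20 (adjusted p = 0.010), and the core protein Uqcrc2 by 0.52 ± 0.14 (adjusted p = 0.010) and 0.59 ± 0.14 (adjusted p = 0.0045). The other core protein Uqcrc1 passed in BMP4 (0.51 ± 0.16, adjusted p = 0.018) and not in bFGF/BMP4 (0.35 ± 0.16, adjusted p = 0.089). Between the day 6 groups the 8 values lay between 0.01 and 0.26, and none passed. Their median there was 0.09, and it was -0.11 without BMP4 replicate 2. The call of Uqcrfs1 in bFGF/BMP4 was lost without bFGF/EGF replicate 1 or 3 or bFGF/BMP4 replicate 2 or 3, and that of Uqcrc1 in BMP4 without bFGF/EGF replicate 1 or 3 or BMP4 replicate 2.

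In complex IV 8 of 18 tested members were higher (44.4%) and 1 lower in bFGF/BMP4 against bFGF/EGF, beside 25.0% and 23.6% of all genes. In BMP4 against bFGF/EGF 11 were higher (61.1%) and 1 lower, beside 29.6% and 25.3% of all genes. Without replicate 2 of both bFGF/EGF and BMP4 14 were higher and none lower in bFGF/BMP4, and 10 were higher and 1 lower in BMP4. The shares of all genes that were higher in that fit were 24.6% and 27.7%. The 7 general isoforms (Cox4i1, Cox6a1, Cox6b1, Cox7a2, Cox7b, Cox8a and Ndufa4) had medians of 0.53 in bFGF/BMP4 and 0.55 in BMP4 against bFGF/EGF, with 3 and 4 of 7 higher and none lower. Cox4i1, the general isoform of the subunit through which ATP regulates the enzyme, was at 228.8, 276.6 and 197.7 FPKM in bFGF/EGF, 364.7, 309.3 and 314.7 FPKM in bFGF/BMP4 and 328.0, 514.8 and 333.9 FPKM in BMP4. Its day 6 libraries all lay above day 0, with log2 fold changes of 0.50 ± 0.21 (adjusted p = 0.071) and 0.72 ± 0.21 (adjusted p = 0.014), the latter lost without bFGF/EGF replicate 3. Cox4i1 shares 514 exonic bases with Emc8 on the opposite strand (mean 36.4 FPKM over all libraries), whose level rose by 1.26 and 2.35 on the log2 scale, and its part in the value of Cox4i1 was not tested. Cox7b rose by 0.53 ± 0.18 (adjusted p = 0.035) and 0.77 ± 0.18 (adjusted p = 0.0048), and Cox6a1 by 0.60 ± 0.23 (adjusted p = 0.049) and 0.62 ± 0.23 (adjusted p = 0.040). Ndufa4 rose by 0.69 ± 0.21 (adjusted p = 0.021) and 0.55 ± 0.21 (adjusted p = 0.046), with overlap of BMP4 replicate 1 and bFGF/EGF replicate 2 in the latter, while Cox8a (0.58 ± 0.22 and 0.46 ± 0.22), Cox7a2 (0.31 ± 0.21 and 0.48 ± 0.21) and Cox6b1 (0.23 ± 0.23 and 0.37 ± 0.23) did not pass. Cox6c, a subunit with no tissue isoform, rose by 0.77 ± 0.18 (adjusted p = 0.0061) and 1.02 ± 0.18 (adjusted p = 9.9e-04). Cox7a2l, which is known as a supercomplex assembly factor rather than a fixed part of complex IV, did not pass (0.22 ± 0.18 and 0.05 ± 0.18). Between the day 6 groups the general isoforms had a median of 0.14, and none passed. Of these calls, those of Cox6a1 held in 11 of 21 alternative fits in each comparison, those of Ndufa4 in 16 and 11, and that of Cox7b in bFGF/BMP4 in 13, lost among others without any 1 bFGF/BMP4 library, bFGF/EGF replicate 1 or 3, or BMP4 replicate 3. The value of Cox5b is uncertain, since Cox5b-ps, a pseudogene by its symbol although annotated as protein-coding, was at 12.5 to 42.8 FPKM.

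The tissue isoforms of complex IV were the members called between BMP4 and bFGF/BMP4 in the main fit. Of 8, Cox7b2 and Cox8c were not tested. Cox8b, Cox4i2, Ndufa4l2, Cox6b2 and Cox7a1 were higher in BMP4 than in both other groups, and Cox6a2 was lower. Their levels were low next to those of their general partners, so the numbers of fragments are given with the FPKM. The intervals below are 95% exact intervals of ratios of summed fragments and cover counting error only.

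Cox8b, known from heart and skeletal muscle of rodents, had 0, 4 and 0 fragments in the bFGF/EGF libraries, 5, 3 and 4 in the bFGF/BMP4 libraries, and 38, 63 and 44 in the BMP4 libraries. In FPKM this was 0, 0.703 and 0 in bFGF/EGF, 0.864, 0.543 and 0.755 in bFGF/BMP4, and 6.50, 10.8 and 7.41 in BMP4. Every BMP4 library was far above all others, while bFGF/EGF and bFGF/BMP4 overlapped. The ratio of BMP4 to bFGF/BMP4 was 11.4 (6.32 to 22.6), with a log2 fold change of 3.33 ± 0.69 (adjusted p = 0.0064). Against bFGF/EGF the log2 fold change was 5.35 ± 0.69 (adjusted p = 1.1e-04), with a ratio of 37.4 (14.3 to 139.1). The difference between bFGF/BMP4 and bFGF/EGF passed by limma (2.02 ± 0.69, adjusted p = 0.035) but rested on 12 and 4 fragments, with a ratio of 3.28 (0.995 to 14.0), and it was lost in 12 of 21 alternative fits, among them those that left out any 1 library other than bFGF/EGF replicate 2.

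Cox4i2, the isoform of the Cox4 subunit known from lung and from cells in low oxygen, had 2, 6 and 5 fragments in bFGF/EGF, 5, 12 and 5 in bFGF/BMP4, and 43, 84 and 50 in BMP4. Its BMP4 libraries, at 3.36, 6.58 and 3.85 FPKM, lay above the other 6 libraries, which ranged from 0.149 to 0.993 FPKM. The log2 fold change of BMP4 was 3.47 ± 0.42 against bFGF/EGF (adjusted p = 6.9e-05) and 2.77 ± 0.42 against bFGF/BMP4 (adjusted p = 0.0011), and between bFGF/BMP4 and bFGF/EGF it was 0.70 ± 0.42 (adjusted p = 0.20). As a share of Cox4i1 plus Cox4i2 it made up 0.140% ± 0.0650 (SD, n = 3), 0.188% ± 0.115 and 1.14% ± 0.124 in the order of the groups above. This share compares genes within a library and does not depend on how libraries were scaled.

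Ndufa4l2, the paralog of Ndufa4 known as a target of the hypoxia factor HIF1, had 1, 10 and 3 fragments in bFGF/EGF, 14, 15 and 14 in bFGF/BMP4, and 60, 68 and 49 in BMP4. The 3 groups did not overlap in FPKM (0.0537 to 0.577, 0.796 to 0.893 and 2.71 to 3.83), and BMP4 replicate 2 was only slightly above replicate 1. The log2 fold changes from bFGF/EGF were 1.67 ± 0.45 in bFGF/BMP4 (adjusted p = 0.012) and 3.50 ± 0.45 in BMP4 (adjusted p = 1.1e-04), and BMP4 exceeded bFGF/BMP4 by 1.83 ± 0.45 (adjusted p = 0.017). The last call was lost in 6 of 21 alternative fits, those that left out any bFGF/BMP4 library, BMP4 replicate 1 or BMP4 replicate 2 among them, with adjusted p-values of up to 0.069. Ndufa4l2 made up 0.161% ± 0.145 (SD, n = 3), 0.361% ± 0.0145 and 1.54% ± 0.413 of Ndufa4 plus Ndufa4l2. On the opposite strand, Ndufa4l2 shares 727 exonic bases with Shmt2, and Cox8b shares 1231 with Psmd13. Shmt2 was lower by 1.88 on the log2 scale in BMP4 than in bFGF/EGF, and Psmd13 had a log2 fold change of -0.36 (adjusted p = 0.11). Between the day 6 groups Shmt2 had -0.43 (adjusted p = 0.032) and Psmd13 0.36 (adjusted p = 0.20). The part of these neighbours in the values of the members was not tested. The setting of strand in the counting is not given in the sources used here, and 34 of the tested members share exonic bases with an expressed gene on the opposite strand.

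Cox6b2, known from testis, was the most abundant tissue isoform, with 4.94, 7.70 and 5.01 FPKM in bFGF/EGF, 8.88, 8.29 and 13.4 FPKM in bFGF/BMP4, and 28.2, 47.5 and 37.2 FPKM in BMP4. The 3 groups did not overlap. Its log2 fold changes were 0.78 ± 0.25 in bFGF/BMP4 (adjusted p = 0.027) and 2.66 ± 0.25 in BMP4 (adjusted p = 1.3e-05) against bFGF/EGF, and 1.87 ± 0.25 between the day 6 groups (adjusted p = 5.3e-04). The first of these calls was lost without bFGF/EGF replicate 1 or 3 or bFGF/BMP4 replicate 3. Its share of Cox6b1 plus Cox6b2 was 2.12% ± 0.211 (SD, n = 3), 3.13% ± 0.732 and 9.67% ± 0.903.

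Cox7a1, the isoform of heart and skeletal muscle, had 0.770, 0.946 and 0.740 FPKM in bFGF/EGF, 3.84, 2.56 and 1.52 FPKM in bFGF/BMP4, and 4.49, 6.00 and 4.53 FPKM in BMP4. It rose in bFGF/BMP4 (1.49 ± 0.29, adjusted p = 0.0020) and in BMP4 (2.47 ± 0.29, adjusted p = 6.1e-05). The groups did not overlap, but the 3 bFGF/BMP4 libraries spread from 12 to 33 fragments, and the step between the day 6 groups (0.98 ± 0.29, adjusted p = 0.040) was lost in 14 of 21 alternative fits, among them those that left out any 1 library other than bFGF/BMP4 replicate 1.

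Cox6a2, the isoform of heart and skeletal muscle of the subunit Cox6a, went the other way. It had 41, 43 and 47 fragments in bFGF/EGF, 26, 8 and 15 in bFGF/BMP4, and 2, 0 and 0 in BMP4, with mean levels of 3.82 ± 0.240 (SD, n = 3), 1.55 ± 0.808 and 0.0604 ± 0.105 FPKM. The 3 groups did not overlap, and bFGF/BMP4 lay between the others. Summed fragments were 63.5 times as many in bFGF/EGF as in BMP4 (17.2 to 529.7), and 26.0 times as many in bFGF/BMP4 as in BMP4 (6.82 to 220.7). The limma calls were -1.37 ± 0.47 for bFGF/BMP4 against bFGF/EGF (adjusted p = 0.034, lost in 9 of 21 alternative fits, among them those without any 1 bFGF/EGF library, bFGF/BMP4 replicate 2 or bFGF/BMP4 replicate 3), -4.79 ± 0.47 for BMP4 against bFGF/EGF (adjusted p = 1.6e-05) and -3.42 ± 0.47 for BMP4 against bFGF/BMP4 (adjusted p = 5.8e-04). Its share of Cox6a1 plus Cox6a2 was 0.827% ± 0.130 (SD, n = 3), 0.216% ± 0.0989 and 0.0105% ± 0.0181.

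**Figure D5:**
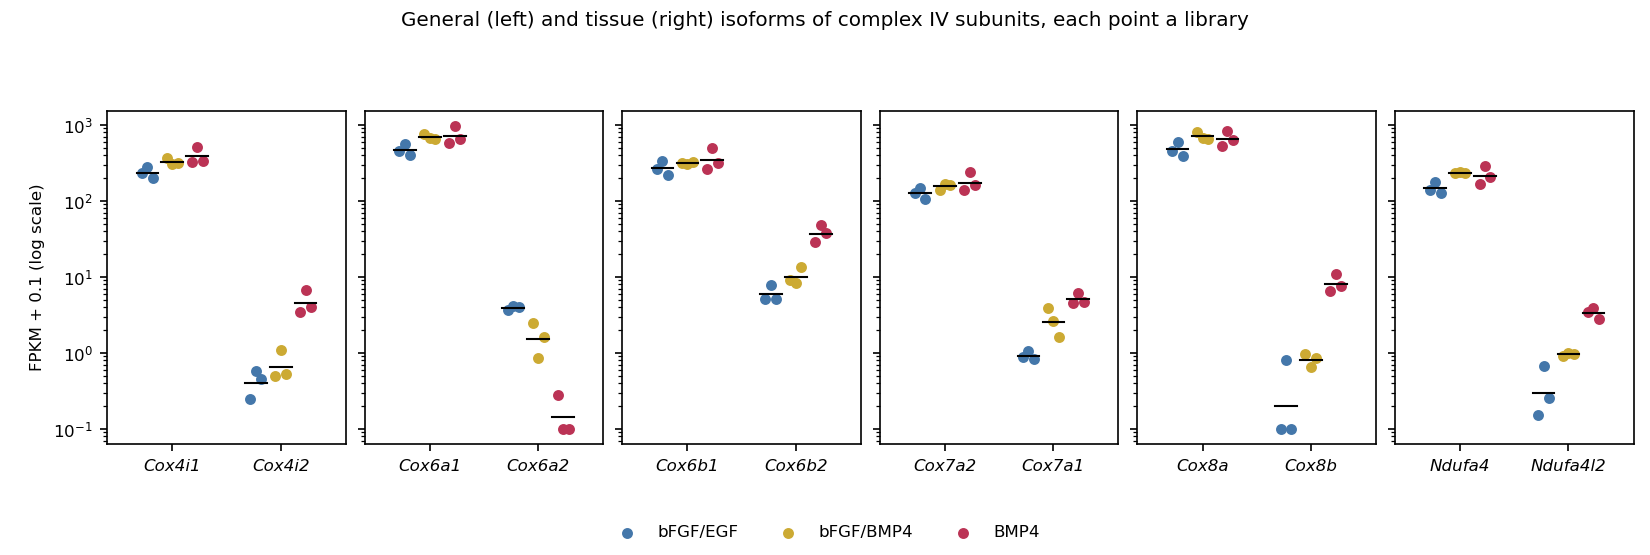
FPKM + 0.1 on a log axis (y axis) for 6 pairs of complex IV isoforms (x axis, general isoform left and tissue isoform right). Points are libraries, colours mark the groups, and bars are the geometric means of 3 libraries. The general isoforms lie above 100 FPKM in all libraries, while Cox4i2, Cox6b2, Cox8b and Ndufa4l2 step up in BMP4 and Cox6a2 steps down to 0.181 FPKM or less.

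The sequences just upstream of the start sites are shown for the 3 members with the largest rise in BMP4 against bFGF/EGF, since these members moved together. They are the 250 bases before the start of the canonical transcript in GENCODE vM39, read from GRCm39 on the strand of the gene, at chr7:140480360-140480609 (minus strand) for Cox8b, chr10:127350568-127350817 (plus strand) for Ndufa4l2 and chr2:152595813-152596062 (plus strand) for Cox4i2. Capitals mark ACGTG, the core of the element bound by hypoxia-inducible factors, on either strand.
Cox8b: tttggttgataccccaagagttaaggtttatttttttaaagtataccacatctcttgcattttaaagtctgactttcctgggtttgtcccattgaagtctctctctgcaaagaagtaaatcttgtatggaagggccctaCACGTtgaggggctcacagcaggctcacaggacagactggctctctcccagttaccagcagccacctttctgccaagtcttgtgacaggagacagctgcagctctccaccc
Ndufa4l2: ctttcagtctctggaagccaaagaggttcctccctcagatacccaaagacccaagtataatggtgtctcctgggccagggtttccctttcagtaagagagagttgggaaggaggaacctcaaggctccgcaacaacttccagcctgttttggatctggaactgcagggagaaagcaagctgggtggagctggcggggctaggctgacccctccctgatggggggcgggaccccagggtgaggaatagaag
Cox4i2: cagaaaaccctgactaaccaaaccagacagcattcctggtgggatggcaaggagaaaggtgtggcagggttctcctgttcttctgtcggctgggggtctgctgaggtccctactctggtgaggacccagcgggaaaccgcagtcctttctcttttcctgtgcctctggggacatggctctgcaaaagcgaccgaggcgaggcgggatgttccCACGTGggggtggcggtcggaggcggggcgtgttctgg
Cox4i2 holds an overlapping pair of matches, 1 on each strand, that begin 38 and 37 bases before the start site, Cox8b holds 1 on the opposite strand that begins 111 bases before it, and Ndufa4l2 holds none in this window. Over all 21770 protein-coding genes 17.0% of such windows hold ACGTG on either strand, against 18.2% of the 88 members, 26.7% of the 30 members higher in BMP4 against bFGF/EGF and 14.0% of the 50 that were not called. Of 4 other short motifs, the core GCGCATGC of NRF1 sites was in 6.82% of member windows and 2.68% of all windows, the ETS core CCGGAAG in 6.82% and 6.89%, and the core GGCGCC of BMP response elements in 5.68% and 9.31%. The site TCAAGGTCA of oestrogen-related receptors was in none of the member windows and in 0.432% of all windows. A match is a description of letters and no evidence of binding, and with 88 windows these shares differ by a few genes. The windows of Cox8b, Ndufa4l2 and Cox4i2 had 47.2%, 56.4% and 60.8% G and C, against a median of 53.2% over all windows.

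In complex V the pattern differed from that of complexes III and IV. None of 18 tested members was higher in bFGF/BMP4 against bFGF/EGF by limma, where 1 had a positive value at an unadjusted p under 0.05, and limma-voom also called none, with 2 at that level. In BMP4 against bFGF/EGF 1 was higher. In each of these comparisons 2 were lower. The shares of all genes were 25.0% and 29.6% higher and 23.6% and 25.3% lower. The medians were 0.20 and 0.29. The count of 0 rested on the libraries: without replicate 2 of both bFGF/EGF and BMP4, 10 of 18 were higher in bFGF/BMP4, with a median of 0.34, and 5 in BMP4. With quantile normalization these counts were 7 and 10. All genes had shares higher of 24.6% and 27.7% without replicate 2 of both groups, and of 23.7% and 26.5% with quantile normalization. The median of 0.29 in BMP4 was 0.14 without BMP4 replicate 2. The subunits Atp5f1a and Atp5f1b, which form the ring of the F1 head, did not pass. Atp5f1b was at 475.4, 564.0 and 401.0 FPKM in bFGF/EGF, 653.8, 603.9 and 623.5 FPKM in bFGF/BMP4 and 531.0, 686.0 and 537.5 FPKM in BMP4, with log2 fold changes of 0.40 ± 0.19 (adjusted p = 0.10) and 0.29 ± 0.19 (adjusted p = 0.22). Atp5f1a had 0.26 ± 0.18 in both. Over the 5 genes of F1 the medians were 0.22 and 0.24, over the 4 tested genes of the peripheral stalk 0.28 and 0.41, and over the 5 other membrane subunits 0.21 and 0.44. The single member that rose in BMP4 was Atp5pf, of the peripheral stalk (0.52 ± 0.15, adjusted p = 0.014).

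The members of complex V that fell were Atp5if1 and Atp5mc2. Atp5if1, the inhibitor that blocks the enzyme when it would run backwards and split ATP, was at 58.3, 63.8 and 50.3 FPKM in bFGF/EGF, 32.9, 34.2 and 32.7 FPKM in bFGF/BMP4 and 29.4, 50.5 and 37.8 FPKM in BMP4. All bFGF/BMP4 libraries lay below all bFGF/EGF libraries, whereas BMP4 replicate 2 reached the range of bFGF/EGF. The log2 fold changes were -0.78 ± 0.18 (adjusted p = 0.0050) and -0.58 ± 0.18 (adjusted p = 0.020). Atp5mc2 is 1 of 3 genes that encode the same mature c subunit of the rotating ring, each with its own import sequence. It was at 140.7, 158.1 and 117.2 FPKM in bFGF/EGF, 95.1, 94.5 and 105.4 FPKM in bFGF/BMP4 and 85.6, 117.4 and 83.9 FPKM in BMP4, with log2 fold changes of -0.49 ± 0.16 (adjusted p = 0.032) and -0.54 ± 0.16 (adjusted p = 0.017). Its bFGF/BMP4 libraries all lay below day 0, and BMP4 replicate 2 just reached the lowest bFGF/EGF library. In BMP4, both calls were lost without bFGF/EGF replicate 1 or 2, or without BMP4 replicate 1 or 3, and that of Atp5mc2 in bFGF/BMP4 was lost in 6 of 21 alternative fits. Atp5mc1 (-0.01 ± 0.20 and 0.39 ± 0.20) and Atp5mc3 (0.13 ± 0.19 and 0.28 ± 0.19) did not pass. Within each library, Atp5mc2 made up 38.5%, 35.5% and 36.6% of the summed FPKM of the 3 genes in bFGF/EGF, 27.2%, 26.5% and 29.6% in bFGF/BMP4, and 25.5%, 23.7% and 24.8% in BMP4. No library of 1 group overlapped another group. The share of Atp5mc3 was 55.7% ± 1.60 (SD, n = 3), 64.4% ± 1.90 and 65.9% ± 0.626, and that of Atp5mc1 was 7.40% ± 0.0746, 7.79% ± 0.618 and 9.45% ± 0.679.

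The 13 subunits encoded by the mitochondrial genome, which join the nuclear subunits in complexes I, III, IV and V, had larger changes. In each comparison with bFGF/EGF 8 of 13 were higher (61.5%) and none lower, beside 25.0% and 29.6% of all genes higher. The medians were 1.23 in bFGF/BMP4 and 1.01 in BMP4, the values of mt-Co2, which did not pass (adjusted p = 0.055 and 0.097). Means over all libraries were 7911.9 FPKM for mt-Co1, 133.8 for mt-Co2, 82.3 for mt-Co3, 8.03 for mt-Nd3 and 4.74 for mt-Atp8. The bFGF/BMP4 libraries of mt-Co3 were at 69.1, 301.5 and 51.5 FPKM. The reason for the low levels was not tested. None of the 13 passed between the day 6 groups. They took 5.58% ± 1.43 (SD, n = 3) of all transcripts at day 0, against 9.83% ± 0.958 with bFGF/BMP4 and 9.63% ± 0.304 with BMP4. The genes of the mitochondrial ribosome, tested in the same fits, had medians of -0.37 and -0.15, with 1 and 4 of 77 higher and 31 and 30 lower, and those of the cytosolic ribosome, also short and abundant, had medians of -1.51 and -1.67, with 4 of 92 higher and 82 and 84 lower. Lower were 40.3% and 39.0% of the first and 89.1% and 91.3% of the second, beside 23.6% and 25.3% of all genes. The subunits of the respiratory chain thus had medians of the opposite sign to both groups of ribosomal proteins.

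Other genes of the pathway gave a mixed picture. Of 13 genes of the TCA cycle, which supplies NADH and succinate, 10 were higher in bFGF/BMP4 and 12 in BMP4 against bFGF/EGF, none lower, among them the succinyl-CoA ligase subunit Sucla2 (1.12 ± 0.14 in BMP4, adjusted p = 7.9e-05). The shares of all genes in these comparisons were 25.0% and 29.6% higher and 23.6% and 25.3% lower. Between the day 6 groups 1 of the 13 was higher, Suclg1, beside 12.2% of all genes. Of 46 tested assembly factors, which help to build the complexes, 12 were higher and 3 lower in bFGF/BMP4, 11 higher and 4 lower in BMP4, so that the share that was higher was near or below that of all genes, and 3 were higher between the day 6 groups, where the copper chaperone Cox19 led (1.48 ± 0.17, adjusted p = 1.8e-04). Of 13 genes of coenzyme Q synthesis, 4 were higher and 1 lower in bFGF/BMP4, 7 higher and 1 lower in BMP4, and 1 higher and 1 lower between the day 6 groups. The kinase-like Coq8a had the largest value among them (3.35 ± 0.24 in bFGF/BMP4, adjusted p = 2.9e-06), and Pdss1 fell (-1.58 ± 0.19 in BMP4, adjusted p = 6.1e-05). Both supercomplex and hypoxia factors, Higd1a (0.86 ± 0.16 and 1.32 ± 0.16) and Higd2a (0.76 ± 0.17 and 1.04 ± 0.17), rose in both comparisons with bFGF/EGF and did not pass between the day 6 groups. Of the 4 other nuclear subunits and carriers, cytochrome c (Cycs), Cyc1 and Ndufab1 did not pass and Dmac2l rose (1.04 ± 0.14 and 1.42 ± 0.14).

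Regulators of mitochondrial biogenesis moved in both directions. Of 13, 4 were higher and 6 lower in bFGF/BMP4, 3 higher and 6 lower in BMP4, and 1 was higher between the day 6 groups. The shares of all genes were 25.0% higher and 23.6% lower in bFGF/BMP4, and 29.6% and 25.3% in BMP4, against bFGF/EGF. The coactivator Ppargc1a, a known driver of respiratory genes, rose from 5.29 ± 1.29 FPKM (SD, n = 3) in bFGF/EGF to 31.1 ± 5.60 in bFGF/BMP4 and 29.6 ± 4.34 in BMP4 (log2 fold changes 2.55 ± 0.20 and 2.48 ± 0.20, adjusted p = 6.3e-06 and 4.9e-06). Its relatives fell, Ppargc1b by 1.91 in bFGF/BMP4 (adjusted p = 9.8e-05) and Pprc1 by 1.62 in BMP4 (adjusted p = 7.6e-05) on the log2 scale. Of 11 genes of transport through the mitochondrial membranes, 2 were higher and 4 lower in bFGF/BMP4, and 2 higher and 5 lower in BMP4, with the import pore Tomm40 at -1.21 ± 0.14 (adjusted p = 5.6e-05) and -1.37 ± 0.14 (adjusted p = 1.7e-05), and none passed between the day 6 groups.

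The cell state of the groups differed along with these genes. The 7 markers of neural stem cells were above 0 in each group, with summed levels of 1634.6 to 1753.5 FPKM in bFGF/EGF, 574.7 to 651.8 in bFGF/BMP4 and 1425.4 to 1865.4 in BMP4, and 6 of 7 were higher in BMP4 than in bFGF/BMP4. All 6 proliferation markers fell in both day 6 groups and 5 of 6 were lower in BMP4 than in bFGF/BMP4, with summed levels of 256.2 to 486.2 FPKM in bFGF/EGF, 65.1 to 108.9 in bFGF/BMP4 and 37.8 to 50.9 in BMP4. All 6 markers of mature astrocytes rose in both, with summed levels of 59.2 to 81.4, 648.5 to 742.9 and 3639.9 to 4514.7 FPKM, and 4 were higher and 1 lower in BMP4 than in bFGF/BMP4. The paper states that quiescent NSCs have many markers in common with astrocytes, and Gfap, which it names, is in this list. From comparisons of the transcriptome it concludes that both day 6 groups were quiescent NSCs and not astrocytes. The rise of this list does not by itself name the cell type. Summed markers of neurons (105.1 to 185.4 FPKM in BMP4, at most 32.1 elsewhere), ependymal cells (58.0 to 70.4 in BMP4, at most 12.8 elsewhere) and the oligodendrocyte lineage (24.6 to 30.7 in BMP4, at most 16.3 elsewhere) were also higher in BMP4, with 3 of 5, 5 of 5 and 1 of 4 tested markers higher and 1, 0 and 0 lower against bFGF/BMP4. Within these lists the neuronal sum was mostly Tubb3 and the ependymal sum mostly Foxj1, while Tmem212 was at 0 in all groups. Markers of microglia summed to at most 1.74 FPKM and those of endothelial and mural cells to at most 1.76 FPKM, with C1qa and Cldn5 at 0 in every library. Muscle is not represented in these lists, and the part of other cell types in the change of the tissue isoforms was not tested.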

How the data were processed

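RNA of 9 libraries in 3 groups was measured by RNA-seq. Per the submitters' processing notes, the authors used fastp 0.19.7, HISAT2 2.0.5, featureCounts 1.5.0-p3 and mm39. The annotation release and the strand setting of the counting are not given in the sources used here. The authors deposited FPKM values, in which each library had been divided by 0.924 to 1.08 times its fragments on genes, so libraries had been scaled against each other. All 9 columns were mapped to samples. Gene names and coordinates came from GENCODE vM39 on GRCm39, the same assembly, in which 54749 of 55414 Ensembl identifiers were found. Whole fragment numbers were rebuilt for 30837 of the 30860 genes above 0, all members included.

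The deposited FPKM are not counts, and a table of raw counts among the study's supplementary files was not used here, so differential expression used limma-trend (limma 3.58.1, R 4.3.3) on log2(FPKM + 0.1) in 1 fit of all libraries, with Benjamini-Hochberg adjustment over the genes whose mean FPKM reached 0.1. Tables were made with Python 3.11.15, pandas 2.3.3 and numpy 2.4.6, and figures with matplotlib 3.10.9. The method was run on simulated fragment numbers with known changes. These had no shift shared by many genes of a library, so the run does not cover the pattern of BMP4 replicate 2. The members, lists and tests were chosen with earlier results of these data known. Named members were those called with a fold change of at least 2 in a comparison, the 3 called members with the largest change per complex and comparison, the 5 most abundant, complex II, a list of core and isoform genes, and the 2 called genes with the largest change in each other list, of which some are given here. Each library was left out in turn, and other runs used limma-voom on fragment numbers, quantile or median-ratio scaling, TPM with or without mitochondrial genes, a pseudocount of 1, another minimum (none, or 1 FPKM), the replicate number as block, the compared groups alone, or a fold threshold of 2. Chosen after seeing the data were leaving out replicate 2 of both bFGF/EGF and BMP4, and removing the trend with gene length within each library. The members other than the tissue isoforms are limited by the spread between libraries rather than by counting. The labels do not say whether libraries with the same replicate number are paired, and the main fit had no replicate block. A few items are not reported here by name.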

Additional observations from a re-analysis of the deposited data

How the results depend on the processing

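In bFGF/BMP4 against bFGF/EGF the 21 members that were higher became 32 on the TPM scale, 37 on the TPM scale without genes of the mitochondrial genome, 46 with quantile normalization and 52 without replicate 2 of both bFGF/EGF and BMP4, and 5 with a fold change of at least 2. Of all genes, 24.2% were higher on the TPM scale and 23.7% with quantile normalization. The shares were 24.6% without replicate 2 of both groups and 16.5% with a fold change of at least 2. With 1 library left out the count lay between 12 and 29, and the count of members that were lower between 1 and 4. That count of 3 became 1 without a filter and 1 with a fold change of at least 2. In BMP4 against bFGF/EGF the 30 higher members became 53 with quantile normalization and 11 with a fold change of at least 2, and 21 to 36 with 1 library left out. Of all genes, 26.5% were higher with quantile normalization and 21.3% with a fold change of at least 2. The 4 lower members became 1 in a fit of only the groups compared and 1 with a fold change of at least 2, and 1 to 5 with 1 library left out. In BMP4 against bFGF/BMP4 the 5 higher members became 3 on the TPM scale without genes of the mitochondrial genome and 3 to 4 with 1 library left out, and the 1 lower member became 4 with quantile normalization, 4 without replicate 2 of both groups, and 1 to 2 with 1 library left out. Of all genes, 11.1% were lower with quantile normalization and 8.65% without replicate 2 of both groups. The cause of these changes was not tested.

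The median log2 fold changes of the members lay between 0.18 and 0.41, 0.17 and 0.56, and -0.08 and 0.26 in the 3 comparisons with 1 library left out, so the sign of the last is set by BMP4 replicate 2. Among single genes, Cox6a1 in BMP4 against bFGF/BMP4 turned to -0.35 (adjusted p = 0.028) with quantile normalization. With the trend with gene length removed, 19, 24 and 5 members were higher (22.6%, 28.6% and 5.95%), beside 23.6%, 27.1% and 11.7% of all genes. The medians in that fit were 0.22, 0.26 and 0.03 for the members, and 0.01, 0.01 and -0.04 for all genes. With limma-voom on the fragment numbers the counts were 25, 31 and 4. Of 20189 genes in that fit, 4980 were higher in the first comparison and 2682 in the last. Between libraries with the same replicate number, deviations from the group means correlated by -0.21 to 0.22, which cannot decide whether they were paired. With a replicate block 24, 34 and 5 members were higher. Shares of all genes are not given here for the replicate block, for TPM without mitochondrial genes, or for most fits with 1 library left out.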
